A study of Mus musculus with 547 samples.

Results

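The cells described here are single DLK+ liver cells of mouse embryos at E15.5 and at E13.5, which are days of embryonic life, all annotated by the submitters as putative hepatoblast/hepatocyte. Of the 529 single cells of the series, 78 belong to this comparison: 39 E15.5 cells from sets 1, 3 and 4, which gave 12, 8 and 19 cells, and 39 E13.5 cells from sets 1, 2 and 3, which gave 13, 18 and 8 cells. A set is the first number in a cell's name. What that number stands for (litter, sort, plate) is not given in the labels, and p-values therefore measure only how far sets spread, which may be technical. For the single-cell gene tests this spread was estimated over all 42 sums of embryo cells by set, other stages and gates included. Livers were dissociated and the DLK+ gate was sorted by flow cytometry, without culture or treatment; the cells were picked by mouth pipette and amplified by Smart-seq2 with ERCC spike-ins. The labels give no strain, genotype or number of embryos for them. The same stages were also sequenced as bulk libraries of sorted DLK+ cells, 2 at E15.5 and 2 at E13.5. The question was which genes set apart DLK+ cells of this annotation at the later stage from those at the earlier one.

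DLK1 is a surface protein of fetal hepatoblasts, the bipotent progenitors that give rise to hepatocytes and to cholangiocytes, the cells of the bile ducts. During mid-gestation the liver is chiefly a blood-forming organ, and hepatoblasts divide fast while they take on the secretory and metabolic work of hepatocytes. Hepatocytes make most plasma proteins, detoxify ammonia through the urea cycle, release glucose, make bile acids and clear steroids and drugs. HNF4A, the FOXA proteins and CEBPA are transcription factors known to act at the promoters of many of these genes.

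The cells had 911874 to 1439858 reads in genes at E15.5 and 815623 to 1367423 at E13.5. Summed by set, the E15.5 cells gave 13923886, 9225711 and 20578862 reads and the E13.5 cells gave 14865663, 19100118 and 7139560 reads. Values below are normalised counts of these sums scaled per library size (CPM), in the order of the set numbers, unless another scale is named. The median number of genes detected per cell, after each cell was thinned to 500000 reads, was 8408, 8352 and 8018 in the E15.5 sets and 8315, 8347 and 8326 in the E13.5 sets (exact two-sided permutation test over sets, p = 1.0). Reads per spike-in read had set medians of 86.1, 54.4 and 35.7 at E15.5 and 68.0, 74.8 and 47.0 at E13.5 (p = 0.9 in the same test). Gene reads per cell had set medians of 1122139, 1154685 and 1091864 at E15.5 and 1078507, 1055094 and 898727 at E13.5. These did not overlap, so E15.5 cells were sequenced somewhat deeper (p = 0.1 in the same test). The smallest p that 3 sets against 3 allow is 0.1. What part this difference in depth has in the results was not tested.

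Marker genes were read beside the annotation. How the submitters assigned it is not given in the sources used here and it may rest on the same genes, so the markers describe the cells and are no independent check of the label. The 9 hepatoblast and hepatocyte markers summed to 182159, 173652 and 221494 CPM in the E15.5 sets and to 105315, 93551 and 116856 CPM in the E13.5 sets. Dlk1 itself was read in all 39 cells of each stage, with 1129, 1261 and 1084 CPM in the E15.5 sets and 1522, 1310 and 1447 CPM in the E13.5 sets (log2 fold change -0.30 ± 0.35 SE, adjusted p = 0.867). The 7 cholangiocyte markers summed to 34.7, 39.5 and 36.8 CPM at E15.5 and to 32.0, 20.6 and 38.2 CPM at E13.5; the duct keratin Krt19 had 0 reads at E15.5 and 1 read at E13.5. The 7 erythroid markers summed to 5.25 to 26 CPM in the E15.5 sets and to 1.38 to 4.38 CPM in the E13.5 sets, so they were higher at E15.5; their part in the results was not tested. The macrophage sum reached 2.78 CPM at E15.5 and 1.24 CPM at E13.5, and endothelial markers reached 4.82 CPM at E15.5 and 1.69 CPM at E13.5; Lyve1, Kdr, Pf4, Cd79a, Cd34 and Vsig4 had 0 reads at both stages. The stellate list summed to 96.1, 80.5 and 140 CPM at E15.5 and to between 123 and 127 CPM at E13.5, nearly all of it Reln, while the collagen gene Col1a2 and Dcn, the decorin gene, had 0 reads at both stages. Markers of other blood cells reached 2.41 CPM at E15.5 and 2.66 CPM at E13.5. Mesothelial markers summed to 0.647, 15 and 12.4 CPM at E15.5 and to 0.199, 0.973 and 6.61 CPM at E13.5. The low-count filter left 3 of 7 macrophage, 3 of 6 endothelial, 5 of 8 other blood and 2 of 5 mesothelial markers to be tested. It also left 7 of 7 cholangiocyte, 6 of 7 erythroid and 7 of 8 stellate markers. None of those tested passed edgeR's test or DESeq2's. At an unadjusted p below 0.05, 1 endothelial marker was higher at E15.5, and limma on set means called 1 stellate marker lower.

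At E15.5 these cells had higher normalised counts for some genes of plasma proteins and of liver enzymes. Counts were lower for some genes of ribosomal proteins and chaperones and for a few fetal genes. These are relative levels and not amounts of mRNA per cell. Of 16838 genes tested, 112 were higher at E15.5 (0.665%) and 97 were lower (0.576%) at an adjusted p below 0.05 (edgeR's quasi-likelihood test, Benjamini-Hochberg over all genes). The CPM of the sets did not overlap between the stages for 207 of these 209 genes; over all genes tested, the sets did not overlap with E15.5 higher for 10.2% and with E15.5 lower for 10.3%. The count depended on the number of sets: it was 49, 49 and 82 without E13.5 set 1, 2 or 3 and 86, 71 and 46 without E15.5 set 1, 3 or 4. All 209 genes kept their direction in these 6 fits, and 26 passed in each of them. Among those 26 were Cyp3a11, Pzp, C8b, Apoh, Slc37a4, Apob, Acat1, Fah, Cd24a, Rcn3, Hsp90aa1, Ccnd1, Npm1, Fbl, Rpl27 and Rpl18. The split also moved with the scaling. With library totals in place of trimmed-mean (TMM) factors, 79 genes were higher and 314 lower, and the median over all genes shifted by -0.249 on the log2 scale. This shift bears on small changes, such as those of ribosomal protein genes. Albumin and Afp took larger shares of the reads at E15.5, Alb with 5.22%, 4.61% and 6.36% at E15.5 and 2.63%, 2.29% and 2.31% at E13.5.

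In the 4 lists of plasma proteins (carriers, coagulation, complement and protease inhibitors), each gene that passed the test was higher at E15.5. Of the 22 plasma carriers and apolipoproteins tested, 6 rose and none fell, with a median log2 change of 1.17; with 1 set left out, 2 or 3 rose. Albumin (Alb, chr5:90460897-90476602, plus strand, as GENCODE annotates GRCm38; gene spans below are from the same annotation), the main carrier protein of plasma, had 58754, 51853 and 80915 CPM at E15.5 and 25986, 22357 and 22717 CPM at E13.5. The lowest E15.5 set lay above every E13.5 set (log2 fold change 1.43 ± 0.37 SE, adjusted p = 0.0476). With 1 set left out, the change of Alb stayed between 1.24 and 1.58 and missed the threshold in all 6 fits. Ahsg (chr16:22891277-22899449), which encodes the fetal plasma protein fetuin-A, had 9690, 10702 and 14224 CPM at E15.5 and 2171, 1439 and 2088 CPM at E13.5. Its log2 change of 2.60 ± 0.62 (SE; adjusted p = 0.0276) was the largest of the 6, and it also missed the threshold with any 1 set left out. Apoh, a phospholipid-binding plasma protein, averaged 2875 ± 498 CPM at E15.5 and 601 ± 21.2 CPM at E13.5 (SD, n = 3 sets each), a log2 change of 2.26 (adjusted p = 0.00401). Apob, the structural protein of very low density lipoproteins, averaged 1211 ± 65.6 CPM at E15.5 and 408 ± 36.7 CPM at E13.5, a log2 change of 1.57 (adjusted p = 0.00117). The others were Ttr, a carrier of thyroid hormone, with 8743 ± 754 CPM at E15.5 and 3872 ± 329 CPM at E13.5, and Trf, the iron carrier transferrin, with 2700 ± 309 CPM at E15.5 and 1082 ± 274 CPM at E13.5. Another annotated gene on the same strand shares 63.5% of the exon bases of Trf, so its count is less certain. Apoa1 had 14046 ± 1578 CPM at E15.5 and 6253 ± 931 CPM at E13.5, which did not pass (adjusted p = 0.122).

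**Figure D1:**
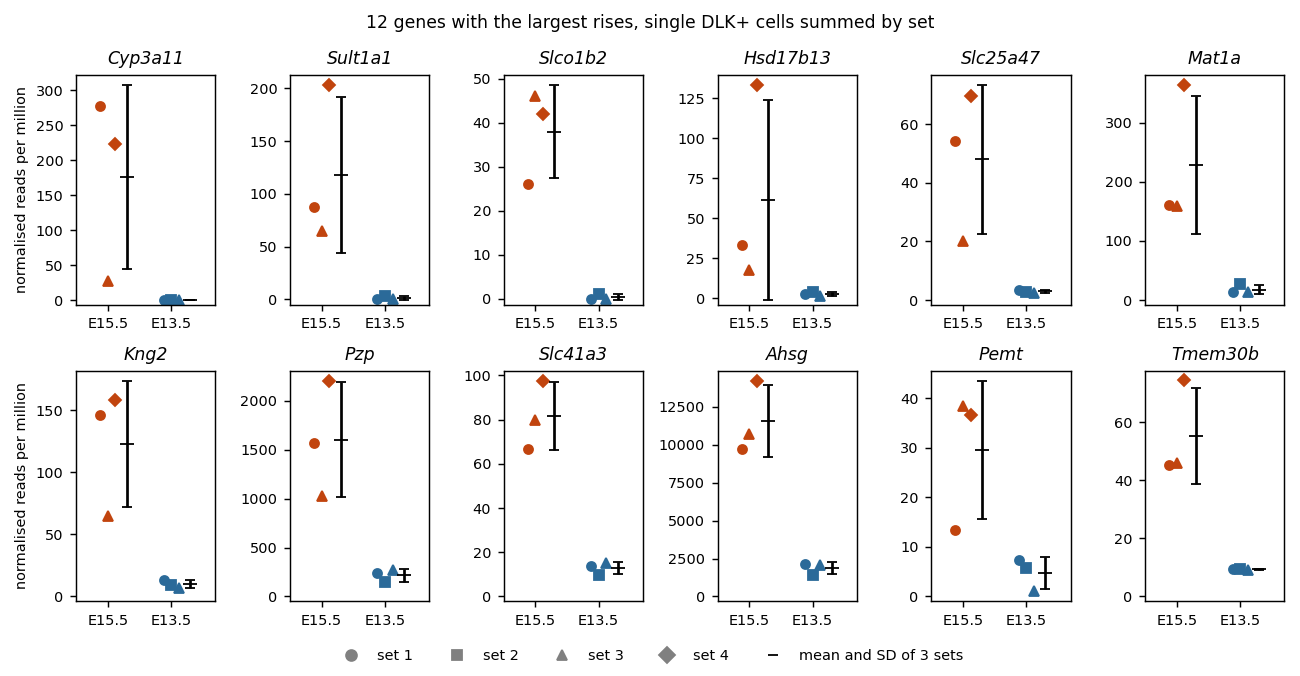
Normalised CPM (linear y axes) of the 12 genes with the largest rises by the rule for named genes, 1 panel per gene, with 1 point per set (its shape gives the set), E15.5 to the left of E13.5, and the mean with its SD over 3 sets beside the points. The E15.5 points of each gene lie above all its E13.5 points, and the E13.5 points of Cyp3a11, Sult1a1 and Slco1b2 sit at or near 0.

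Of 20 genes of coagulation and fibrinolysis, 7 rose and none fell, with a median log2 change of 1.07. None of the 7 passed without E13.5 set 1 or without E13.5 set 2, 1 passed without E15.5 set 4, and 2 or 3 passed with another set left out; Fgg, F11 and Proc missed the threshold in all 6 fits. Fga and Fgg, which encode chains of fibrinogen, had 4340 ± 427 and 3818 ± 181 CPM at E15.5, against 1789 ± 395 and 1522 ± 164 CPM at E13.5. Kng1, the kininogen gene, averaged 3385 ± 215 CPM at E15.5 and 1273 ± 186 CPM at E13.5, and its near copy Kng2 averaged 123 ± 50.5 CPM at E15.5 and 9.89 ± 3.06 CPM at E13.5 (log2 change 3.62, adjusted p = 0.00617). Reads could be split between these copies. The clotting factor gene F11 had 212, 193 and 253 CPM at E15.5 and 57.3, 43.5 and 35.5 CPM at E13.5 (log2 change 2.27, adjusted p = 0.0417). F5, Plg (plasminogen) and Proc (protein C) rose by 1.60, 1.10 and 0.93 on the log2 scale. Prothrombin, F2, had 2261 CPM at E15.5 and 1232 CPM at E13.5 on average and did not pass (adjusted p = 0.0698).

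Of 18 complement genes, 3 rose and none fell, with a median log2 change of 1.16; with 1 set left out, 1 or 2 rose. C8b, a subunit of the membrane attack complex, had 257, 290 and 425 CPM at E15.5 and 60.8, 65.2 and 72.7 CPM at E13.5, with no overlap (log2 change 2.29 ± 0.38 SE, adjusted p = 0.00137). C3, the central complement protein, averaged 2052 ± 619 CPM at E15.5 and 884 ± 112 CPM at E13.5; its protease Cfi averaged 1235 ± 117 CPM at E15.5 and 733 ± 49.6 CPM at E13.5. Of 20 protease inhibitors, 7 rose and none fell, with a median of 1.32; with 1 set left out, 1 to 3 rose. Pzp, a broad plasma protease inhibitor, had 1572, 1029 and 2202 CPM at E15.5 and 240, 145 and 273 CPM at E13.5, and the lowest E15.5 set was above the highest E13.5 set (log2 change 2.87, adjusted p = 0.000736). Itih4, Itih3 and Itih1, heavy chains of a matrix-binding inhibitor, rose by 2.44, 1.60 and 1.02 on the log2 scale. The alpha-1 antitrypsin genes Serpina1a, Serpina1c and Serpina1d rose by 1.13, 1.77 and 1.5, and reads can be shared among these near-identical copies. Serpina6, which encodes the corticosteroid carrier of plasma, was already high, with 11697 ± 1456 CPM at E15.5 and 9706 ± 530 CPM at E13.5 (adjusted p = 0.793). For comparison, the median log2 change over all genes tested was 0.

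Promoter letters were read for the rising genes, and those of 3 of them are printed below; among these is Cyp3a11, the first of the largest rises. RefSeq promoters of build GRCm38.p6 were found for 83 of the 112 rising genes, 105 promoters in all since some genes have several starts, each with 250 bases before and 50 after the start. The letters CAAAGTNCA, an HNF4-type motif, were searched on both strands. They were in 3 of these 105 promoters (2.86%) and in 0 of the 92 promoters of falling genes. The share was 1.31% among the 14703 promoters of genes tested and 1.41% among all 32851 promoters. The count among rising genes thus rests on few promoters. The letters CCAAT, an NF-Y-type motif, were in 44.8% of the promoters of rising genes and in 38.0% of those of falling genes. Their share was 37.2% among promoters of genes tested and 37.4% among all. TTTGAA, a CHR-type motif, was in 11 of the 105 promoters of rising genes and in 10 of the 92 of falling genes. It was in 1814 of the 14703 promoters of genes tested (12.3%) and in 5878 of all 32851 (17.9%). A match of letters is a description and not a measured binding site, and matches were counted whether or not they overlapped another motif. The 3 promoters with the HNF4-type letters are those of Cyp3a11, Ftcd and Pla2g7. Each line gives the 250 bases before the start, 5′ to 3′ on the gene's strand, with the matched letters in capitals; in Ftcd and Pla2g7 the match reads on the opposite strand.
Cyp3a11, chr5:145879855-145880104, minus strand: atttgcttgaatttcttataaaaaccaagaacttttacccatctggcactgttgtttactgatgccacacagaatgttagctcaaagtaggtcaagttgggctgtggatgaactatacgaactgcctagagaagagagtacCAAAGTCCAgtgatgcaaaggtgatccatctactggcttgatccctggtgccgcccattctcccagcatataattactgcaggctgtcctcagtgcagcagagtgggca
Ftcd, chr10:76575398-76575647, plus strand: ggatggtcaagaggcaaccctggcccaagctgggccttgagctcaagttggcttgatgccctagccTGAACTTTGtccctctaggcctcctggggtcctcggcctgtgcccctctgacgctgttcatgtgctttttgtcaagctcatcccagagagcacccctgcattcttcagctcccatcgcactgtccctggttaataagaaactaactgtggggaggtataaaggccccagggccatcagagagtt
Pla2g7, chr17:43568201-43568450, plus strand: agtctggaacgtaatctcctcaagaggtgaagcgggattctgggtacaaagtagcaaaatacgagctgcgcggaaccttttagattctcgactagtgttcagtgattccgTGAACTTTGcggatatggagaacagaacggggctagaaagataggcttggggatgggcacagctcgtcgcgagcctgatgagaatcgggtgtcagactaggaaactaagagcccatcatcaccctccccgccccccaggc
The match begins 109 bases before the RefSeq start in Cyp3a11, 184 in Ftcd and 140 in Pla2g7. RefSeq and GENCODE starts can differ. For Cyp3a11 the GENCODE gene, on the minus strand, begins at 145879964, within the printed stretch. Its match therefore lies inside the GENCODE gene span and not before it. Ftcd, an enzyme of histidine breakdown, had 329, 443 and 351 CPM at E15.5 and 187, 194 and 184 CPM at E13.5 (log2 change 0.99, adjusted p = 0.0476), and missed the threshold with any 1 set left out. Pla2g7, a phospholipase that inactivates platelet-activating factor, had 95.9, 66.3 and 97.2 CPM at E15.5 and 27, 19.4 and 33.1 CPM at E13.5 (log2 change 1.71, adjusted p = 0.017), and missed it in 4 of the 6 fits. Both have sets that did not overlap. Hnf4a averaged 108 CPM at E15.5 and 113 CPM at E13.5 (log2 change -0.05, adjusted p = 1.0).

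The largest rises were in drug and steroid metabolism, where 5 of 22 genes rose, none fell and the median log2 change was 2.08; with 1 set left out, 1 to 3 rose. Cyp3a11 (chr5:145854426-145879964), a major cytochrome P450 of drug oxidation, had 277, 27.7 and 223 CPM at E15.5 and 0.0663, 0.41 and 0 CPM at E13.5. Set 3 was the low one of the E15.5 sets, still far above every E13.5 set (log2 change 9.71 ± 1.37 SE, adjusted p = 0.000504). Other Cyp3a genes are similar in sequence and can share its reads. Sult1a1, a sulfotransferase of phenols, had 87.9, 64.5 and 203 CPM at E15.5 and 0.0663, 3.33 and 0 CPM at E13.5 (log2 change 6.46, adjusted p = 0.00835). Hsd11b1, which regenerates active glucocorticoid, had 497 reads at E15.5 and 0 reads at E13.5, at least 189-fold higher against a floor of 3 reads over the E13.5 group. The glutathione transferase gene Gsta3 averaged 422 ± 58.4 CPM at E15.5 and 105 ± 28.6 CPM at E13.5, and the flavin monooxygenase gene Fmo1 averaged 135 ± 26.1 CPM at E15.5 and 30.2 ± 9.12 CPM at E13.5. Without E13.5 set 1 or set 3, Sult1a1 missed the threshold, with a highest adjusted p of 0.0814 over the 6 fits, and Gsta3 and Fmo1 missed it in all 6. Genes outside the rule for named genes, chosen after their values were seen, had the same pattern as Hsd11b1. Xkr9 had 672 reads at E15.5, Cyp2a22 293 and Gprin3 144, against 0 reads at E13.5 for each, which is at least 255-fold, 111-fold and 54.7-fold higher.

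Amino acid metabolism had few calls beside large differences. Of 20 genes of the urea cycle and amino acid breakdown, 2 rose, none fell and the median log2 change was 0.81. Arg1, arginase of the urea cycle, had 354, 106 and 414 CPM at E15.5 and 48.6, 45.7 and 62.7 CPM at E13.5 (log2 change 2.48, adjusted p = 0.0161). E15.5 set 3 was again low for Arg1 but did not overlap with E13.5. Fah, the last enzyme of tyrosine breakdown, averaged 415 ± 101 CPM at E15.5 and 174 ± 11 CPM at E13.5 (log2 change 1.25, adjusted p = 0.00270). Cps1, which makes the carbamoyl phosphate that enters the urea cycle, had 582, 193 and 503 CPM at E15.5 and 18.7, 3.94 and 49.0 CPM at E13.5; the sets were apart, but the spread within E13.5 was wide and the gene missed the threshold (log2 change 4.19, adjusted p = 0.0578). Outside the list, Mat1a, the liver enzyme that makes S-adenosylmethionine, had 161, 159 and 364 CPM at E15.5 and 13.1, 26.7 and 13.6 CPM at E13.5 (log2 change 3.67, adjusted p = 0.00821). Cbs, which channels homocysteine to cysteine, averaged 210 ± 58.0 CPM at E15.5 and 73.2 ± 22.9 CPM at E13.5 (adjusted p = 0.0328). Arg1 missed the threshold in 5 of the 6 fits without a set, Mat1a in 3 and Cbs in 6.

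Of 16 genes of gluconeogenesis and glycogen, 2 rose, with a median of 0.82. Slc37a4 carries glucose 6-phosphate into the endoplasmic reticulum, the step before glucose release; it had 205, 230 and 252 CPM at E15.5 and 54.1, 60.8 and 60.5 CPM at E13.5 (log2 change 1.97, adjusted p = 0.000504), and its partner enzyme gene G6pc had 0 CPM at both stages. Ugp2, which makes the sugar donor for glycogen, averaged 296 ± 60.4 CPM at E15.5 and 98.5 ± 18.1 CPM at E13.5 (adjusted p = 0.00905). In fatty acid oxidation and ketogenesis, 5 of 18 genes rose, none fell and the median was 0.76. None of the 5 passed without E13.5 set 1, without E13.5 set 2 or without E15.5 set 4, and 1 to 4 passed with another set left out. They included Acadl, Hadhb and Acaa1b, which act in mitochondria or peroxisomes. Acadl, a mitochondrial dehydrogenase, averaged 705 ± 121 CPM at E15.5 and 375 ± 11.1 CPM at E13.5, and Acaa1b, a peroxisomal thiolase, averaged 33.9 ± 6.68 CPM at E15.5 and 6.0 ± 1.96 CPM at E13.5. Acat1, the mitochondrial thiolase of ketone metabolism, averaged 1010 ± 163 CPM at E15.5 and 351 ± 39.9 CPM at E13.5 (log2 change 1.52, adjusted p = 0.00225). In cholesterol and fatty acid synthesis 1 of 20 genes rose, and the list's median was 0.33.

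Bile acid genes had the second highest median of the metabolic lists, 1.52, with 1 call among 16 genes. Slco1b2, a transporter that takes bile acids and bilirubin up from blood, had 26.1, 46.0 and 41.9 CPM at E15.5 and 0, 1.18 and 0 CPM at E13.5 (log2 change 6.36 ± 1.62 SE, adjusted p = 0.0496). The bile acid uptake carrier Slc10a1 had 23.2, 13.2 and 54.8 CPM at E15.5 and 1.39, 2.46 and 0 CPM at E13.5, with no overlap, and did not pass (adjusted p = 0.0535). Cyp7a1, the rate-limiting enzyme of bile acid synthesis, stayed low, with 4.63 CPM at E15.5 and 4.95 CPM at E13.5. Slco1b2 missed the threshold with any 1 set left out. With genes at 0 reads in 1 stage set to the floor of 3 reads, and genes at or under it in both stages left out, the medians became 2.44 for drug and steroid metabolism, 1.5 for protease inhibitors, 1.00 for the urea cycle and amino acid breakdown, 0.96 for gluconeogenesis and glycogen and 0.81 for fatty acid oxidation.

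**Figure D2:**
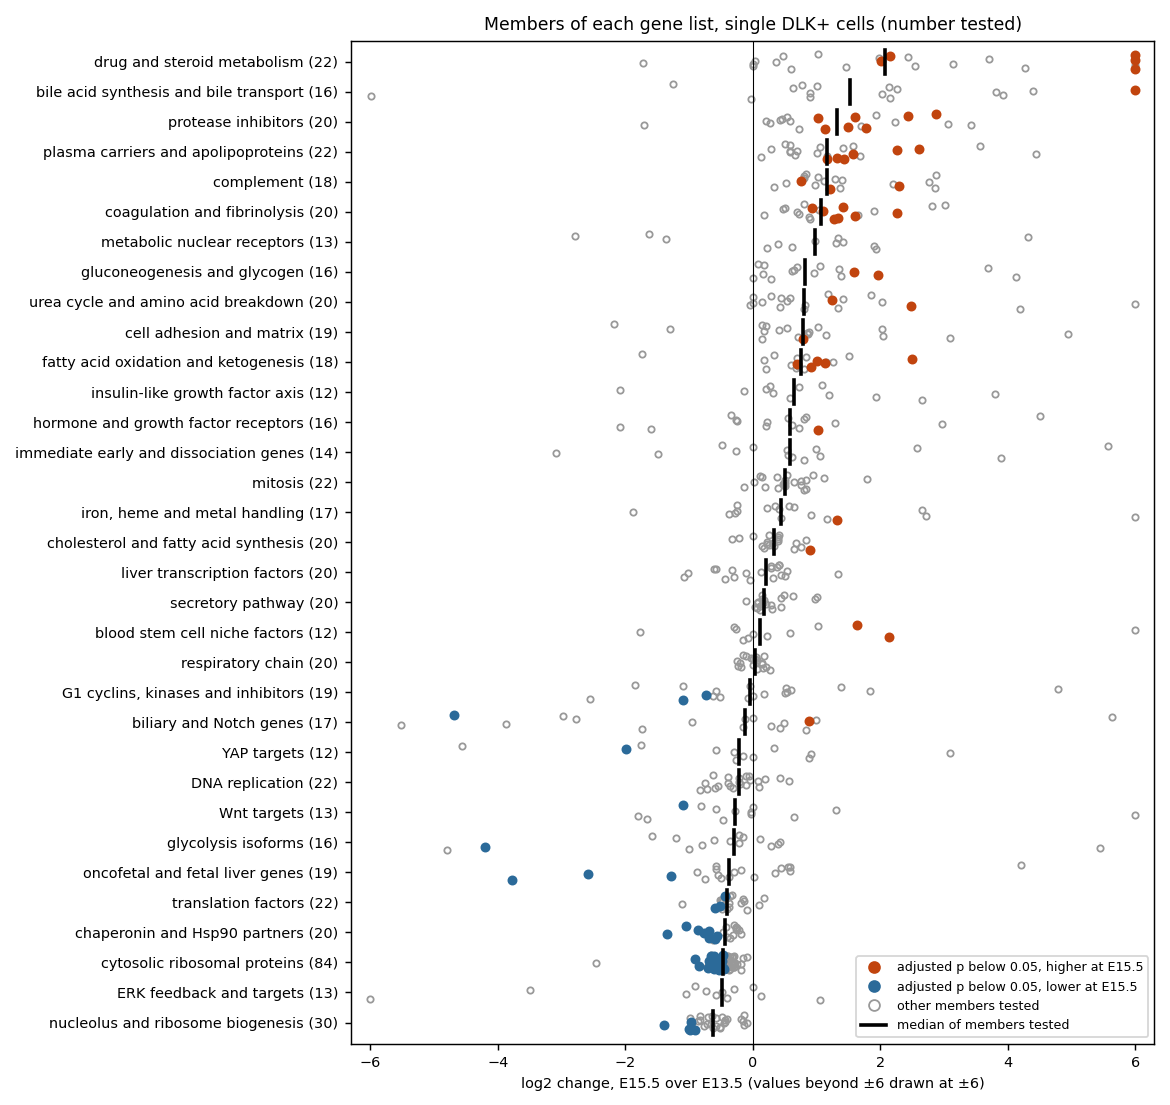
Log2 change, E15.5 over E13.5, of every tested member of each gene list (number tested in brackets), with 1 point per gene, filled for genes that passed the test, and a black bar at the list's median; values beyond the ends of the x axis are drawn at its ends. The lists of plasma proteins and of drug, bile acid, glucose and fatty acid metabolism have medians right of 0, and the ribosomal, nucleolar and chaperonin lists have theirs left of 0.

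The falls included genes of early liver. Of 19 oncofetal genes tested, 3 fell, none rose and the median log2 change was -0.37. Lin28a (chr4:134003330-134018841), an RNA-binding protein of embryonic cells that blocks let-7 processing, had 0.566 to 2.41 CPM in the E15.5 sets, with a mean of 1.20 ± 1.05, and up to 22.9 CPM in the E13.5 sets, with a mean of 16.9 ± 5.35 (SD, n = 3 sets each), and the sets did not overlap (log2 change -3.77 ± 0.91 SE, adjusted p = 0.0321). Its relative Lin28b had 19.1 CPM at E15.5 and 32.1 CPM at E13.5 and did not pass (adjusted p = 0.832). Mdk, the growth factor midkine, had 6.38, 6.83 and 1.98 CPM at E15.5 and 42.8, 24.9 and 22.2 CPM at E13.5 (log2 change -2.59, adjusted p = 0.0343). Hmga1, a chromatin protein of dividing cells, averaged 44.8 ± 12 CPM at E15.5 and 109 ± 15.7 CPM at E13.5 (log2 change -1.29, adjusted p = 0.00905). The classical fetal liver marker Afp did not fall: it had 99194, 94764 and 113027 CPM at E15.5 and 65771, 59647 and 79798 CPM at E13.5 (log2 change 0.58, adjusted p = 0.233). Scaled by gene length as well (TPM), Afp had 71951 TPM at E15.5 and 57397 TPM at E13.5, against 45561 TPM of Alb at E15.5 and 20279 TPM of Alb at E13.5. Igf2, H19 and Gpc3 were likewise higher at E15.5 without passing, Igf2 with 4304 ± 503 CPM at E15.5 and 2870 ± 161 CPM at E13.5; another annotated gene shares 62.8% of its exon bases. Lin28a and Mdk missed the threshold with any 1 set left out, and Hmga1 in 2 of the 6 fits.

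Several of the largest falls lay outside these lists. Rcn3, a calcium-binding protein of the endoplasmic reticulum, had 2.1, 4.02 and 1.98 CPM at E15.5 and 48.5, 56.5 and 72.9 CPM at E13.5 (log2 change -4.49 ± 0.63 SE, adjusted p = 0.000408). A gene on the opposite strand overlaps 16.9% of its exon bases, and the protocol does not mark strand. Cd24a (chr10:43578284-43584265), a surface glycoprotein of progenitor and biliary cells, had 0.647, 0.122 and 0.989 CPM at E15.5 and 17.4, 8.86 and 25.3 CPM at E13.5 (log2 change -4.68, adjusted p = 0.000195). Pkm (chr9:59656368-59679375), the pyruvate kinase of fetal and dividing cells, had 7.68, 1.34 and 3.71 CPM at E15.5 and 107, 30.6 and 103 CPM at E13.5 (log2 change -4.20, adjusted p = 0.0214), and was the only called gene among 16 glycolysis isoforms. A gene annotated on its own strand shares 15.3% of its exon bases. The change of Pkm stayed between -4.88 and -3.80 with 1 set left out but missed the threshold in 5 of 6 fits. Ezr and Cfl1, which act on actin, also fell. Ezr, which links actin to the membrane, averaged 15.8 ± 5.98 CPM at E15.5 and 65.4 ± 28.2 CPM at E13.5, and Cfl1, the actin-severing protein cofilin, averaged 487 ± 11.6 CPM at E15.5 and 763 ± 34.3 CPM at E13.5. Serpinh1, a collagen chaperone, averaged 16.2 ± 1.22 CPM at E15.5 and 53.2 ± 10.2 CPM at E13.5. Cfl1 and some others named here were chosen after their values were seen. Ndn, Cuedc1 and Mkx had 0 reads at E15.5 and 146, 54 and 47 reads at E13.5, at least 42.7-fold, 15.8-fold and 13.8-fold lower against the same floor; for Ndn and Mkx the E13.5 reads came from sets 1 and 2 and set 3 had 0.

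**Figure D3:**
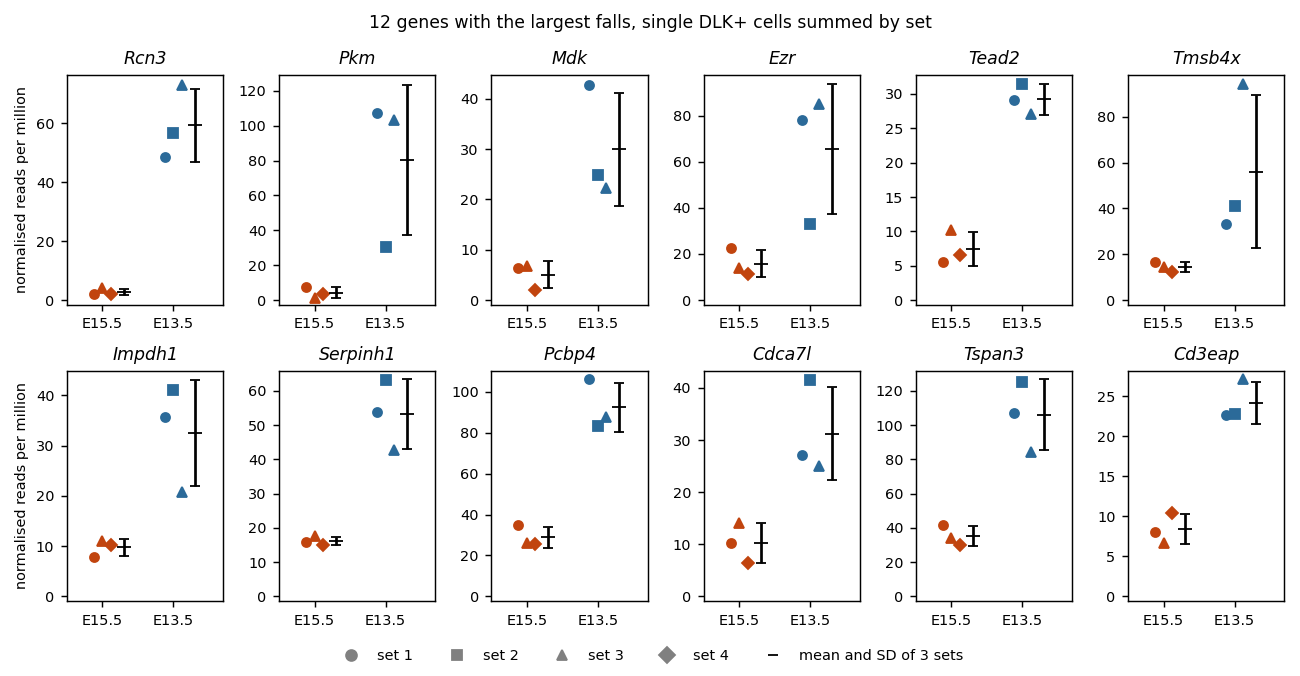
Normalised CPM (linear y axes) of the 12 genes with the largest falls by the same rule, 1 panel per gene, with 1 point per set (its shape gives the set), E15.5 to the left of E13.5, and the mean with its SD over 3 sets beside the points. The E15.5 points of each gene lie below all its E13.5 points, and E13.5 set 2 is the low one for Pkm and Ezr.

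Many of the falling genes belong to the machinery that makes and folds proteins. These 4 lists were added after values were seen, so their counts describe and do not test. Of 84 cytosolic ribosomal protein genes tested, all 84 had a negative log2 change, 28 fell, none rose and the median was -0.46. The sets of 73 of them did not overlap. Over all 16838 genes tested, 7977 had a negative log2 change, and 10.3% had sets that did not overlap with E15.5 lower. Rpl27 had 172, 158 and 176 CPM at E15.5 and 320, 297 and 288 CPM at E13.5 (log2 change -0.84 ± 0.12 SE, adjusted p = 0.000504). Rplp0 had 786, 846 and 927 CPM at E15.5 and 1230, 1251 and 1114 CPM at E13.5 (log2 change -0.49, adjusted p = 0.00821). The changes ran from -2.46 to -0.09, and processed pseudogenes can take part of these reads. The number that fell was 4 to 19 with 1 set left out, 68 with library totals alone and 21 with DESeq2's size factors in the same test, and the medians were -0.72 with totals and -0.42 with size factors.

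Of 30 genes of the nucleolus and ribosome biogenesis, all 30 had a negative log2 change, 5 fell and the median was -0.63; with 1 set left out, 2 to 4 fell. Npm1, an abundant nucleolar chaperone, had 684, 583 and 637 CPM at E15.5 and 1272, 1253 and 1269 CPM at E13.5 (log2 change -0.99, adjusted p = 0.000736). Ncl (nucleolin), Fbl, the methyltransferase of ribosomal RNA, Bop1, a factor of the large subunit, and Polr1c, a subunit of RNA polymerases I and III, fell by 0.91, 1.00, 1.39 and 0.97 on the log2 scale. Of 20 genes of the chaperonin and of Hsp90 and its partners, 8 fell and the median was -0.44; with 1 set left out, 1 to 6 fell. Hsp90aa1 averaged 255 ± 30.3 CPM at E15.5 and 645 ± 10.2 CPM at E13.5, Hsp90ab1 averaged 1381 ± 216 CPM at E15.5 and 2343 ± 153 CPM at E13.5, and the chaperonin subunits Cct3, Cct5 and Cct7 fell by 0.59, 0.69 and 0.56. Among 22 translation factors 3 fell, with a median of -0.40, and at most 1 fell with 1 set left out. They were Eef1g, Eif5a and Naca, and Eif5a averaged 1206 ± 53.2 CPM at E15.5 and 1722 ± 123 CPM at E13.5.

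Cell cycle genes had few calls. Of 19 genes that govern the G1 phase, Ccnd1 and Cdk4, the cyclin and kinase that drive cells into S phase, fell and none rose. Ccnd1 (chr7:144929931-144939925) had 165, 155 and 142 CPM at E15.5 and 365, 331 and 299 CPM at E13.5 (log2 change -1.10 ± 0.17 SE, adjusted p = 0.000736). Cdk4 averaged 348 ± 29.5 CPM at E15.5 and 580 ± 33.6 CPM at E13.5 (log2 change -0.74, adjusted p = 0.0200), and missed the threshold in 5 of the 6 fits without a set. Other annotated genes overlap 23.4% of the exon bases of Ccnd1 and 19.7% of those of Cdk4. None of 22 DNA replication genes and none of 22 mitosis genes passed edgeR's test or DESeq2's, and their median log2 changes were -0.22 and 0.51. At an unadjusted p below 0.05, 2 replication genes were lower at E15.5 and no mitosis gene differed, while limma on set means of cells called 4 replication genes and 3 mitosis genes lower, with medians of -0.78 and 0.03. The replication median turned to 0.07 without E13.5 set 2, and the mitosis median to -0.09 without E15.5 set 1. With the set number fitted as a replicate block on the 6 sums, the contrast rested on sets 1 and 3 alone. In that fit 6 mitosis genes (median 1.67) and 1 replication gene (median 0.36) rose. Top2a, which untangles DNA in dividing cells, had 193, 176 and 45.5 CPM at E15.5 and 90.1, 127 and 20 CPM at E13.5, so the sets overlapped widely (adjusted p = 0.793). Mki67, a marker of cycling cells, had 86.1, 41.4 and 45.4 CPM at E15.5 and 31.8, 48.3 and 16 CPM at E13.5 (adjusted p = 0.822). No mitosis gene had sets that did not overlap.

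Cells of a stage spread widely in the mitosis genes. A list score is the mean of log2(CPM + 1) over its genes. CPM of single cells, here and below, are on library totals and not scaled by TMM factors. For mitosis the score had a median of 1.97 in E15.5 cells (SD 2.46, range 0.40 to 7.98). In E13.5 cells it had a median of 2.95 (SD 2.03, range 1.02 to 7.30). The SD of the same score over drug and steroid metabolism was 0.58 in E15.5 cells and 0.34 in E13.5 cells. For mitosis, 12 of the E15.5 cells lay below the lowest E13.5 cell and 4 above the highest. After thinning to 500000 reads, the mitotic cyclin Ccnb2 was read in 23 of 39 cells at E15.5 and in 38 of 39 at E13.5. Its median level over cells was 36.5 CPM at E15.5 and 134 CPM at E13.5, on library totals. The set sums, scaled by TMM factors, were close, at 90.1 to 155 CPM at E15.5 and 125 to 169 CPM at E13.5. Mki67 was read in 27 cells at E15.5 and 26 at E13.5, and Top2a in 22 cells at E15.5 and 23 at E13.5. Set sums weight cells with high levels, and the shares of cells count every cell alike.

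The liver lists differed in how far the cells of the stages lay apart. The score over drug and steroid metabolism had a median of 3.96 in E15.5 cells and 2.40 in E13.5 cells, and 34 of 39 E15.5 cells lay above the highest E13.5 cell. The same count was 33 for complement, 30 for urea cycle and amino acid genes, 29 for coagulation, 28 for bile acid genes, 25 for plasma carriers, 23 for fatty acid oxidation and 20 each for protease inhibitors and gluconeogenesis. It was 4 for cholesterol and fatty acid synthesis, 2 for the hepatoblast and hepatocyte markers and 1 for liver transcription factors. The score over ribosomal proteins had a median of 7.42 at E15.5 and 8.26 at E13.5, and 25 E15.5 cells lay below the lowest E13.5 cell. In the set sums this list's median log2 change was -0.72 on library totals and -0.46 with TMM factors, so the size of the shift depends on the scale. Single cells of 1 set share their source, so these are counts of cells and not of replicates. Alb ranged from 18451 to 92726 CPM over the E15.5 cells (median 58384) and from 9107 to 41857 CPM over the E13.5 cells (median 21053), on library totals. Ahsg ranged from 1671 to 23395 CPM (median 10283) at E15.5 and from 605 to 5088 CPM (median 1406) at E13.5.

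For some other genes the number of cells with reads differed as well as the level. After thinning, Cyp3a11 was read in 25 E15.5 cells and 1 E13.5 cell, and its level ran up to 1433 CPM at E15.5 and to 7.33 CPM at E13.5. By set, it was read in 6 of 12, 4 of 8 and 15 of 19 E15.5 cells. Sult1a1 was read in 36 cells at E15.5 and 6 at E13.5, Slco1b2 in 21 at E15.5 and 1 at E13.5, and Mat1a in 38 at E15.5 and 18 at E13.5. In the other direction, Lin28a was read in 6 cells at E15.5 and 32 at E13.5, and Rcn3 in 10 at E15.5 and 34 at E13.5. Mdk was read in 13 at E15.5 and 35 at E13.5, Cd24a in 4 at E15.5 and 19 at E13.5, and Tead2 in 17 at E15.5 and 37 at E13.5. Hnf4a was read in 38 cells at E15.5 and in all 39 at E13.5. A cell without reads of a gene may still express it below the depth reached.

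**Figure D4:**
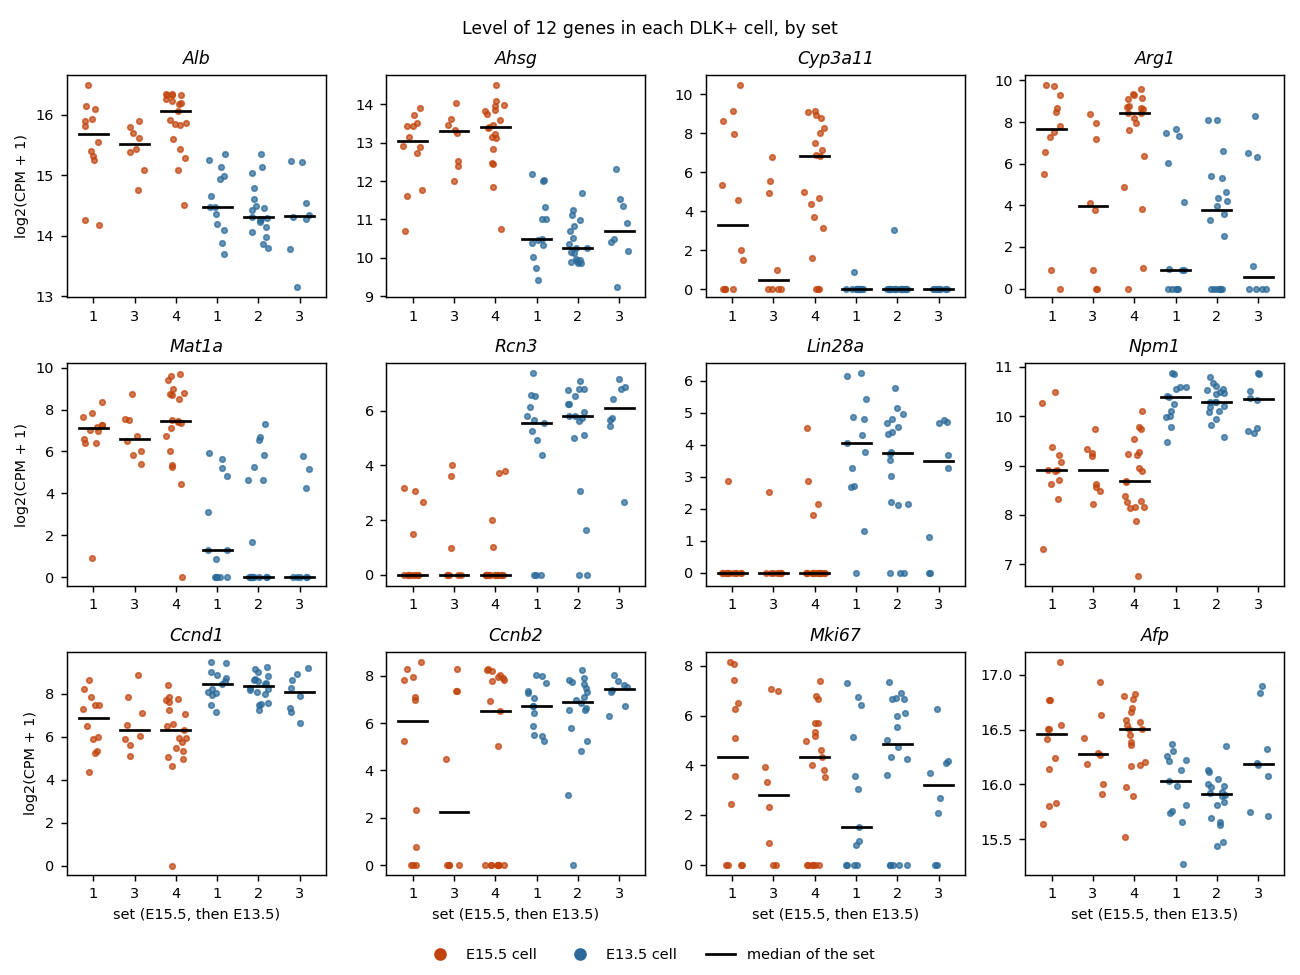
Level of 12 genes as log2(CPM + 1), on library totals, in each of the 39 E15.5 cells and 39 E13.5 cells, 1 panel per gene. Each point is 1 cell, with E15.5 sets left of E13.5 sets and a black bar at each set's median. Axes span each gene's own values, so those of Alb, Ahsg, Npm1 and Afp do not start at 0. Alb and Ahsg are shifted over whole groups of cells, whereas Cyp3a11 has nearly all E13.5 cells at 0 and Rcn3 and Lin28a have most E15.5 cells at 0.

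None of 20 liver transcription factors passed edgeR's test or DESeq2's, with a median log2 change of 0.20 that became -0.06 with library totals; at an unadjusted p below 0.05, 1 was higher and 2 were lower, and limma called 2 lower. Cebpa averaged 32.8 CPM at E15.5 and 24 CPM at E13.5 (adjusted p = 0.859). Hhex, a homeobox factor of early liver, averaged 107 CPM at E15.5 and 163 CPM at E13.5 (log2 change -0.61, adjusted p = 0.122). None of 13 nuclear receptors passed either, though their median was 0.97; 2 were higher at an unadjusted p below 0.05, 2 with DESeq2 and 1 with limma. The bile acid receptor gene Nr1h4 averaged 25.5 CPM at E15.5 and 6.82 CPM at E13.5 (adjusted p = 0.462), and Rora averaged 56.3 CPM at E15.5 and 22.7 CPM at E13.5 (adjusted p = 0.0875). None of 20 secretory pathway genes and none of 20 respiratory chain genes passed, with medians of 0.17 and 0.04 that became -0.08 and -0.21 with library totals. At an unadjusted p below 0.05, 4 secretory genes were higher and no respiratory gene differed; DESeq2 called 1 secretory gene higher, and limma called 1 secretory gene higher, 1 lower and 3 respiratory genes lower. Outside the lists, Rrbp1, a ribosome-binding protein of the endoplasmic reticulum, rose to 578 ± 66.5 CPM at E15.5, against 286 ± 10.7 CPM at E13.5 (log2 change 1.01, adjusted p = 0.000736).

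Signalling and surface genes had single calls. Among 17 biliary and Notch genes, Notch2, the receptor needed for bile duct formation, rose to 107 ± 25.1 CPM at E15.5, against 58.3 ± 4.73 CPM at E13.5 (log2 change 0.88, adjusted p = 0.0230), and Cd24a fell. The Notch target Hes1 averaged 36.3 CPM at E15.5 and 39.2 CPM at E13.5, and the duct regulator Sox9 averaged 0.762 CPM at E15.5 and 0.463 CPM at E13.5. Tead2, a DNA-binding partner of YAP, fell to 7.43 ± 2.49 CPM at E15.5, against 29.2 ± 2.20 CPM at E13.5 (log2 change -1.99, adjusted p = 0.0115), and was the only call among 12 genes of the YAP list. Ccnd1 was the only call among 13 Wnt targets. None of 13 ERK feedback genes, none of 14 immediate early genes and none of 12 genes of the insulin-like growth factor axis passed, with medians of -0.49, 0.58 and 0.65. At an unadjusted p below 0.05, 1 ERK gene was higher, 2 were lower and 3 growth factor axis genes were higher; DESeq2 and limma each called 1 ERK gene lower, and limma called 2 axis genes higher. Igfbp1, a binding protein of insulin-like growth factors, had 2721, 1310 and 1860 CPM at E15.5 and 483, 384 and 676 CPM at E13.5 (adjusted p = 0.196). The growth hormone receptor gene Ghr was the only call among 16 receptors, with 148 ± 29.4 CPM at E15.5 and 72.9 ± 6.96 CPM at E13.5 (adjusted p = 0.0120). Cdh1, which encodes E-cadherin, was the only call among 19 adhesion and matrix genes, with 172, 177 and 176 CPM at E15.5 and 91.0, 75.4 and 138 CPM at E13.5 (adjusted p = 0.0478). Of these, Notch2 and Cdh1 missed the threshold in 5 of the 6 fits without a set, and Tead2 and Ghr in 3.

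Hepatoblasts also secrete factors that support blood-forming cells, and 2 of 12 niche factor genes rose. Agt, angiotensinogen, was 1 of them and averaged 806 ± 104 CPM at E15.5 and 261 ± 16.6 CPM at E13.5 (log2 change 1.63, adjusted p = 0.0289). Kitl, the ligand of the receptor KIT, had 144 CPM at E15.5 and 159 CPM at E13.5, Cxcl12 had 182 CPM at E15.5 and 192 CPM at E13.5, and Thpo had 40.5 CPM at E15.5 and 34.7 CPM at E13.5. The list's median of 0.11 became -0.15 with library totals. Of 17 genes of iron, heme and metal handling, only Trf passed; Hamp, the gene of the iron hormone hepcidin, averaged 9.58 CPM at E15.5 and 0.0171 CPM at E13.5 (adjusted p = 0.243), with sets that overlapped.

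The other stages place the comparison in a longer course, given as a description because E13.5 and E15.5 chose the genes. Of the 112 rising genes, 111 had a mean at E14.5 between those of E13.5 and E15.5, and 99 went beyond their E15.5 mean at E17.5. Of the 97 falling genes, 91 lay between at E14.5, and 42 (43.3%) went below their E15.5 mean at E17.5. Over all genes tested, 33.2% lay between at E14.5 and 44.4% went beyond their E15.5 mean at E17.5 in the direction of their own change, so the share of falling genes that went on to fall was close to the background. Alb had mean levels of 1350, 9410, 22400, 23700, 40700, 63800 and 161000 CPM at E10.5, E11.5, E12.5, E13.5, E14.5, E15.5 and E17.5. Mat1a had 0.796 CPM at E10.5, 17.8 CPM at E13.5, 132 CPM at E14.5, 228 CPM at E15.5 and 1470 CPM at E17.5. Over the same 7 stages as Alb, Pkm ran through 1790, 1090, 147, 80.2, 12, 4.24 and 1.79 CPM. Alb thus changed little between E12.5 and E13.5. Cyp3a11 averaged 15 CPM at E14.5, 176 CPM at E15.5 and 158 CPM at E17.5, with no further increase after E15.5. Rplp0 had 1200, 1200, 1050, 853 and 1060 CPM at E12.5, E13.5, E14.5, E15.5 and E17.5, so it was lowest at E15.5 among these.

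Bulk libraries of DLK+ cells covered the same stages in other samples. There, 2936 genes were higher at E15.5 (19.2%) and 2462 lower (16.1%) of 15275 tested (edgeR's quasi-likelihood test, all 18 bulk libraries fitted together); with a trend on GC content removed the counts were 1715 and 1216, and with library totals alone 1496 and 4101. Without E15.5 library 1 the bulk counts were 1855 higher and 1551 lower, without E15.5 library 2 they were 1876 and 1145, and without either E13.5 library they were at least 2071 and 1751. Of the 112 genes higher in single cells, 99 were also higher in bulk (88.4% of the single-cell list and 3.44% of the bulk list) and none was lower. Of the 97 genes lower in single cells, 70 were lower in bulk (72.2% of the single-cell list and 2.92% of the bulk list), and 1 was higher. That gene was Hdac2, a histone deacetylase, with a log2 change of -0.88 in single cells (adjusted p = 0.0391) and of 0.51 in bulk (adjusted p = 0.0102). The median log2 changes were 1.5 in single cells and 1.39 in bulk for the rising genes, and -0.75 in single cells and -0.70 in bulk for the falling ones. With the bulk GC trend removed, 99 higher and 54 lower genes were shared.

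**Figure D5:**
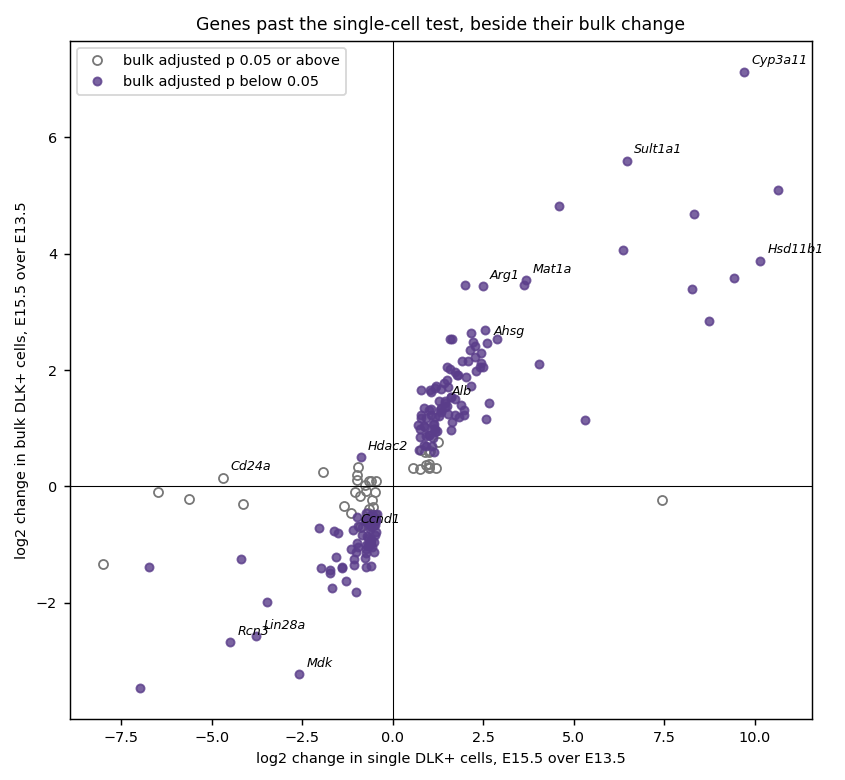
Log2 change in bulk DLK+ libraries (y axis) against that in single DLK+ cells (x axis), both E15.5 over E13.5, for the 209 genes that passed the test in single cells; filled points also passed in bulk. Of the genes higher in single cells 111 lie above 0 in bulk, and 87 of the 97 lower ones lie below 0.

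The size of the rise varied between single cells and bulk for some liver genes, with log2 changes of 6.36 in single cells and 4.06 in bulk for Slco1b2 and of 1.57 in single cells and 2.01 in bulk for Apob. Alb had 97284 and 118726 CPM in E15.5 bulk libraries and 27993 and 51798 CPM in E13.5 ones (log2 change 1.44, adjusted p = 0.0104). Cyp3a11 had 48.4 and 75.1 CPM at E15.5 and 0.234 and 0.669 CPM at E13.5 in bulk (log2 change 7.13, adjusted p = 2.83e-05). Cps1, which missed the threshold in single cells, had 748 and 688 CPM at E15.5 and 32.8 and 71.0 CPM at E13.5 in bulk (log2 change 3.79, adjusted p = 0.000543). Slc10a1 likewise passed in bulk, with 17.9 and 42.1 CPM at E15.5 and 0.937 and 1.45 CPM at E13.5 (adjusted p = 5.89e-05). Afp passed in bulk as higher at E15.5, with 81468 and 83475 CPM at E15.5 and 31756 and 52439 CPM at E13.5 (log2 change 0.97, adjusted p = 0.0326). Dlk1 passed in bulk as lower, with 3410 and 3292 CPM at E15.5 and 5506 and 6441 CPM at E13.5 (log2 change -0.83, adjusted p = 0.00515).

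The falling genes outside the 70 shared ones did not pass as lower in bulk. Cd24a had 23 and 20.8 CPM at E15.5 and 20.4 and 19.2 CPM at E13.5 in bulk (log2 change 0.15, adjusted p = 0.720), against its log2 change of -4.68 in single cells. Npm1 had a log2 change of 0.19 in bulk (adjusted p = 0.432), and Ncl one of -0.17 (adjusted p = 0.400). Tomm20, a mitochondrial import receptor, fell by 0.78 on the log2 scale in single cells and had a change of 0.02 in bulk (adjusted p = 0.930). Of 83 ribosomal protein genes tested in bulk, 46 were lower, 1 was higher and the others did not pass. Whether single-cell and bulk changes differ was not tested, since the kinds of library were not fitted together. Bulk libraries hold every cell of the gate, and in them fewer cells of a type and less RNA per cell cannot be told apart.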

How the data were processed

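Single DLK+ cells and bulk DLK+ libraries were compared at E15.5 and E13.5. The authors deposited counts of reads per gene, not normalized; per the submitters' processing notes the tools were TopHat2 2.1.0, Bowtie2 and HTSeq 0.6.0 on GRCm38 (mm10). Deposited tables of other units were not used. Smart-seq2 has neither molecular identifiers nor strand marking, so copies of a molecule and antisense reads are counted too. Counts were summed over cells that share stage, gate, annotated type and set number. All 42 sums of 2 or more embryo cells were fitted together in edgeR 4.0.16 (R 4.3.3), with TMM factors, filterByExpr, glmQLFit and glmQLFTest; the 18 bulk libraries were fitted likewise. ERCC spike-ins (92) were left out of library sizes. Called means an adjusted p (Benjamini-Hochberg) below 0.05. Alternatives used DESeq2 1.42.0 and limma 3.58.1. The single-cell edgeR test was also run on counts simulated with the spread of its own fit, and that outcome is not used here.

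Named genes were the 12 largest rises and falls among called genes of at least 20 CPM at the higher stage with sets apart and the same direction without any 1 set, leaving out predicted genes, up to 4 called members per list (where none was called, the 2 of highest mean), and a fixed few such as Dlk1, Afp and Hnf4a; other names were chosen after their values were seen. Members and lists were chosen with earlier results of these data known, and 4 lists were added after values were seen. TPM used the gene lengths deposited beside the counts. An SE is the log2 change divided by the square root of edgeR's F. Cells were thinned at random to 500000 gene reads to count genes and cells with reads. Some genes are not reported here.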

Additional observations from a re-analysis of the deposited data

How the results depend on the processing

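Of 1552 alternative values for the 113 named genes, 1198 kept their direction and side of the threshold, 336 kept the direction and lost the call, 17 gained a call, and 1 reversed: Ccna2, 0.19 with no call, became -1.40 with limma on means of cells. The 112 higher and 97 lower genes became 374 and 229 with DESeq2, 564 and 260 with only the 6 sums fitted, and 456 and 864 with limma on set means, which moved the median of all genes by -0.238; library totals alone gave 314 lower genes. With 1 set left out, 18 to 53 were higher and 22 to 50 lower; fewer sets were then fitted. Set numbers 1 and 3 occur at both stages (deviations correlated at 0.0872 and 0.00746), and these correlations cannot show whether the numbers pair the sets. With the number as a replicate block over the 6 sums, 233 genes were higher and 35 lower. Numbers 2 and 4 each occur at a single stage, so the blocked contrast rested on sets 1 and 3 alone. In that fit 6 of 22 mitosis genes (median 1.67) and 1 of 22 replication genes (median 0.36) rose, and 2 ribosomal protein genes fell. Genes called alike in single cells and bulk, 99 higher and 70 lower, became 285 and 142 with DESeq2, 417 and 174 with the 6 sums, 367 and 460 with limma, 192 and 24 with the block, and 195 lower with library totals; with 1 set left out they were 16 to 49 and 15 to 36. In bulk, library totals gave 1496 higher and 4101 lower genes, removal of the GC trend 1715 and 1216, the replicate block with that trend removed 1654 and 1126, the block alone 2846 and 2317, and leaving out 1 library 1855 to 2185 and 1145 to 1971. Same-numbered bulk libraries had deviations correlated at -0.184. With 2 libraries per stage such correlations share the same size and differ only in sign, so they do not show whether numbers pair libraries. With the E13.5 numbers crossed, chosen after seeing the data, the block gave 2786 and 2292. Without a filter on low counts 153 and 70 single-cell genes were called. Removal of a GC trend in single cells, also added after seeing the data, gave 108 and 90. With 1 set left out, the differences between stages ranged over -18.2 to 6.99 in reads per spike-in read and -144 to 51.2 in genes detected after thinning. The cause of these movements was not tested. What depth limits was not tested gene by gene.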

Other observations

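Several called genes outside the lists carry solutes, lipids or regulators of metabolism; all were chosen after their values were seen unless they were among the 12 largest rises or falls. Slc41a3, a magnesium transporter of mitochondria, had 66.8, 80.0 and 97.6 CPM at E15.5 and 13.8, 9.68 and 15 CPM at E13.5, with no overlap. Pemt, which methylates phosphatidylethanolamine to phosphatidylcholine, averaged 29.5 ± 13.9 CPM at E15.5 and 4.71 ± 3.22 CPM at E13.5 (SD, n = 3 sets each). Tmem30b, a subunit of lipid flippases, averaged 55.3 ± 16.6 CPM at E15.5 and 9.34 ± 0.241 CPM at E13.5. Hsd17b13, a protein of lipid droplets, had 33.4, 17.4 and 133 CPM at E15.5 and 2.65, 3.58 and 1.10 CPM at E13.5, and set 4 carried most of the E15.5 mean. Lpl, lipoprotein lipase, averaged 984 ± 64.6 CPM at E15.5 and 427 ± 12.1 CPM at E13.5, a log2 change of 1.20 (edgeR's quasi-likelihood test, adjusted p = 0.0129). Acsl1, which activates fatty acids, averaged 877 ± 68.2 CPM at E15.5 and 348 ± 37.1 CPM at E13.5. Per1, a repressor of the circadian clock, had 22.1, 28.3 and 44.4 CPM at E15.5 and 8.82, 10.6 and 7.30 CPM at E13.5 (log2 change 1.82, adjusted p = 0.0149).

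Impdh1, which acts in guanine nucleotide synthesis, had 7.92, 11.1 and 10.3 CPM at E15.5 and 35.6, 41.1 and 20.7 CPM at E13.5 (log2 change -1.74, adjusted p = 0.00117). Phgdh, the first enzyme of serine synthesis, averaged 586 ± 60.1 CPM at E15.5 and 978 ± 122 CPM at E13.5 (log2 change -0.74, adjusted p = 0.00528). The de novo DNA methyltransferase gene Dnmt3a averaged 85.6 ± 10.7 CPM at E15.5 and 171 ± 32.3 CPM at E13.5 in single cells (log2 change -1.0, adjusted p = 0.0182). In bulk Dnmt3a had 173 and 114 CPM at E15.5 and 123 and 142 CPM at E13.5 (log2 change 0.11, adjusted p = 0.695). Tmsb4x, an actin-binding peptide, had 16.8, 14.6 and 12.4 CPM at E15.5 and 33.0, 41.0 and 94.4 CPM at E13.5 in single cells, and 74.0 and 143 CPM at E15.5 and 107 and 76.0 CPM at E13.5 in bulk, where it did not pass (adjusted p = 0.630). Slc41a3, Tmem30b and Tmsb4x missed the threshold with any 1 set left out, and Pemt in 5 of the 6 fits. Hsd17b13 passed in 2 of them and Acsl1 in 3. In single cells Impdh1 passed with each of the 6 sets left out in turn, Phgdh in 4 of these fits, Per1 and Lpl in 2, and Dnmt3a in 1.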
